A study of Mus musculus with 12 samples.

Results

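The serpin family was examined on 12 Illumina mouse bead arrays of liver and of hepatocytes freshly isolated from liver. Its members were all probes whose single annotated gene symbol starts with Serpin, without the pseudogene Serpina4-ps1, which gave 80 of 45281 probes and 55 genes. By the letter that follows the family name, 20 of these genes belong to clade a, 26 to clade b and 9 to clades c to i. Arrays came from IkkβF/F mice (FF, Cre-negative, carrying the floxed allele) and from IkkβDhep mice (Dhep, Cre-positive, with Ikkβ deleted). Both genotypes were male C57BL6/J, aged 4 to 6 weeks by the sample labels and 6 to 8 weeks by the study's description. The labels do not name the Cre driver. Ikkβ is the kinase that releases the transcription factor NF-κB from its inhibitor.

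The 4 groups were FF liver, Dhep liver, FF hepatocytes and Dhep hepatocytes, with 3 arrays each. The study's description counts 4 mice and 4 RNA samples, so arrays sharing a group are treated as repeats of 1 RNA sample. Tests between them therefore compare RNA samples, and their p-values measure only the spread between arrays. Median raw intensity was 41.0 to 53.8 per array, and the 75th percentile was 75.5 to 119, lowest on the FF hepatocyte arrays. Pearson's r across probes was 0.997 to 0.998 between arrays of 1 group and 0.981 to 0.993 between groups. Ikbkb, the gene of Ikkβ, was not called different: its 1 kept probe had means of 7.62 ± 0.07 (SD, n = 3) in FF liver and 7.47 ± 0.10 in Dhep liver, and 7.35 ± 0.06 in FF hepatocytes against 7.66 ± 0.03 for Dhep. Whether that probe lies in the deleted part was not determined here, so it does not check the genotypes, which are given as labelled throughout. All 10 hepatocyte markers examined, Alb and Ttr among them, stood above the detection floor in all 4 groups. In any comparison 0 of them was called different, where 0.0999% to 1.57% of kept genes were called in each direction. Their median isolation difference was -0.02 in FF and 0.10 in Dhep. Single markers ran from -0.65 to 0.53 in FF and from -0.39 to 0.91 in Dhep. Of 10 sinusoidal endothelial markers, 10 were above the floor in FF hepatocytes and 9 in Dhep hepatocytes, so hepatocyte arrays are not read as 1 cell type.

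Serpins are protease inhibitors that trap their target: the protease cleaves an exposed loop, which then inserts into the serpin and carries the protease along, distorted and inactive. Clade a holds the abundant plasma serpins made by hepatocytes and several carriers of hormones, while clade b serpins lack a classical signal peptide and act mostly inside cells. The remaining clades include the plasma inhibitors of clotting, fibrinolysis and complement, and Serpinh1, a collagen chaperone that inhibits no protease.

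Promoter sequences are shown for the genes that differed most and for relatives of 1 of them that did not, since mouse serpins arose by repeated local duplication. Each is RefSeq sequence on build GRCm38.p6, 300 bases long, spans an annotated transcript start, and reads 5′ to 3′ on the gene's strand. Serpina3f (chr12:104214294-104214593, plus strand) and Serpina3n (chr12:104406458-104406757, plus strand) lie in the same chromosome 12 cluster. Capitals mark matches, on either strand, to the STAT site TTCNNNGAA, the C/EBP site TTNNGCAA or the GC box GGGCGG, and these motifs were chosen with the sequences and the array results in view.
Serpina3f: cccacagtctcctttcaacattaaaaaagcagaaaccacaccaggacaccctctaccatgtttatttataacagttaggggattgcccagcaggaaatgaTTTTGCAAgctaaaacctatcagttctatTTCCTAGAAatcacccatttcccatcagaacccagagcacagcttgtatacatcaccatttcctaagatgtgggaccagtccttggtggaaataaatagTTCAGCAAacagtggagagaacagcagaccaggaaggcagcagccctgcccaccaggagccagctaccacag
Serpina3n: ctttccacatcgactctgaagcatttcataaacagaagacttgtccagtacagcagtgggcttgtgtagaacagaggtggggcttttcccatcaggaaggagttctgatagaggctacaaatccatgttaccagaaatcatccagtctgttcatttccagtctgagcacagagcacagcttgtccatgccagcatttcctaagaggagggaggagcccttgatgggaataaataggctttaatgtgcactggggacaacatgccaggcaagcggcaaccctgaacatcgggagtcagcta
The Serpina3f window held 1 STAT-type match, TTCCTAGAA, 121 bases upstream of the start, and C/EBP-type matches 150 and 22 bases upstream. The Serpina3n window held 0 matches to the 3 motifs. In a local alignment, 206 of 312 columns were identical (66.0%).

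Serpinh1 (chr7:99353190-99353489, minus strand) is shown because it fell in Dhep hepatocytes. Serpina1c (chr12:103904901-103905200, minus strand) and Serpina1e (chr12:103956848-103957147, minus strand) are shown as copies with nearly identical promoter windows that were bright, with small differences between groups.
Serpinh1: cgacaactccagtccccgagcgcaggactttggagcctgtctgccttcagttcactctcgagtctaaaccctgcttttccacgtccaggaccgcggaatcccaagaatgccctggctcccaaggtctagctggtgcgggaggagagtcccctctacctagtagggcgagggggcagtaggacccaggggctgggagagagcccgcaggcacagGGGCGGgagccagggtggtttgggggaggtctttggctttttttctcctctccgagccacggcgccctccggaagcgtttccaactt
Serpina1c: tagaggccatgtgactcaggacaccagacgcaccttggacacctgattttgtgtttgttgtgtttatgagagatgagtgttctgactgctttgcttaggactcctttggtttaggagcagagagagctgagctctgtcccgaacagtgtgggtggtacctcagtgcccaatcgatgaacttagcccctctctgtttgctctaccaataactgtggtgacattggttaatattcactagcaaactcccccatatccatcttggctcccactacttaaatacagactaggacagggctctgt
Serpina1e: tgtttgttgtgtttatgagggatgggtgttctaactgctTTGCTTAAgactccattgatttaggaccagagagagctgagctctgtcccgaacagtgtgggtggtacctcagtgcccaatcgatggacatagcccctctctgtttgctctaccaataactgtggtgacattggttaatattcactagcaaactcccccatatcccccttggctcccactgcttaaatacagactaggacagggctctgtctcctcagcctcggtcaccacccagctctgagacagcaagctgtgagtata
The Serpinh1 window held a GC box 37 bases upstream, and the Serpina1e window a C/EBP-type match 211 bases upstream. Across the 10 pairs of Serpina1a to Serpina1e, identity was 91.4% to 97.6% over 240 to 300 aligned columns. Among 32851 RefSeq promoters of this length, 8.30% held the STAT-type motif, 10.8% the C/EBP motif and 35.7% the GC box. The 49 serpin genes with an entry had 58 promoters, of which 10 held the STAT-type motif, 17 the C/EBP motif and 7 the GC box. These matches describe letters only.

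The detection floor was 6.06 on the log2 intensity scale, and a probe entered the fit if all 3 arrays of some group exceeded it. That left 39 probes and 28 serpin genes: 15 of clade a, 7 of clade b and 6 of clades c to i. Each gene was read from its brightest kept probe. The 27 genes not kept were Serpina16, Serpina1f, Serpina3a, Serpina3b and Serpina3i of clade a, 19 genes of clade b, and Serpine3, Serpini1 and Serpini2. Their group means lay between 5.74 and 6.13 on the log2 scale. The clade b genes not kept were Serpinb1b, Serpinb1c, Serpinb2, Serpinb3d, Serpinb5, Serpinb6d, Serpinb6e, Serpinb7, Serpinb9, Serpinb9b, Serpinb9c, Serpinb9d, Serpinb9e, Serpinb9f, Serpinb9g, Serpinb10, Serpinb11, Serpinb12 and Serpinb13. Of the genes kept, 23 were above the floor in all 4 groups: 14 of 15 in clade a, 3 of 7 in clade b and 6 of 6 in clades c to i.

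Serpina3f and Serpinh1 were the only kept serpin genes called in any comparison. A call needed an adjusted p under 0.05 in limma, with Benjamini-Hochberg adjustment over all kept probes, and a log2 difference of at least 1. In liver, 1 of 28 serpin genes was called higher in Dhep and 0 lower, where 0.508% and 0.0999% of 12010 kept genes were called. In hepatocytes, 1 was called higher and 1 lower, against 1.5% and 1.22% of kept genes. Between hepatocytes and liver, 0 were called in either direction in FF, where 0.841% of kept genes were called higher and 0.225% lower. In Dhep, 1 was called higher and 1 lower, against 0.641% and 0.624%. For the interaction, the hepatocyte genotype difference minus the liver one, 1 was called higher and 1 lower, against 0.891% and 1.57%.

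**Figure D1:**
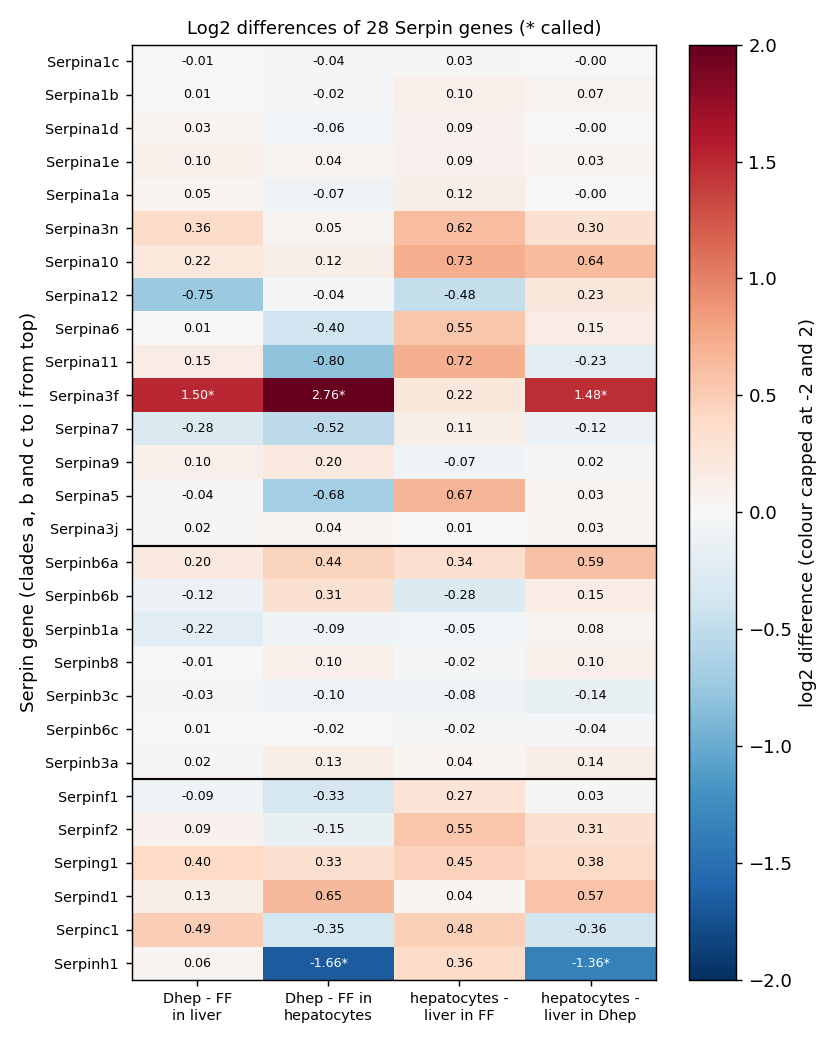
Log2 differences of the 28 kept serpin genes (rows, by clade) in 4 comparisons (columns), with the value in each cell and an asterisk on calls. Serpina3f was called in 3 columns and Serpinh1 in 2, and the 5 Serpina1 genes stayed between -0.07 and 0.12.

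Without the fold threshold, 9 of 28 serpin genes passed the adjusted p in liver and 14 in hepatocytes, where 29.8% and 55.8% of kept genes did. For isolation, 14 passed in FF and 13 in Dhep, where 49.8% and 46.1% of kept genes did, and 14 passed in the interaction, where 47.1% did. The 3 arrays of each group did not overlap for 12 serpin genes by genotype in liver and 16 in hepatocytes, where 42.6% and 61% of kept genes did not. On isolation they did not overlap for 16 in FF and 15 in Dhep, against 56.3% and 54%. For the whole family these shares stood near those of all genes, but by clade they differed. In clades c to i, 6 of 6 genes passed the adjusted p by genotype in hepatocytes and 2 of 6 in liver. In each isolation comparison and in the interaction, 5 of 6 did. In clade b 2 of 7 passed in every comparison, and in clade a 5 to 7 of 15. These clade counts are small, and their difference was not tested.

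Clade medians stood within 0.25 of 0 in both genotype comparisons. In liver, the median log2 difference was 0.03 for clade a, -0.01 for clade b and 0.11 for clades c to i, beside -0.03 over all kept genes. In hepatocytes the medians were -0.04, 0.10 and -0.24, beside -0.00. On isolation they were 0.11, -0.02 and 0.41 in FF and 0.03, 0.10 and 0.17 in Dhep, beside -0.03 and 0.01. All 6 kept genes of clades c to i were above 0 in FF and 4 of 6 in Dhep, and 12 of the 21 genes of clades a and c to i were above 0 in both. For the interaction the medians were -0.09, 0.11 and -0.24, beside 0.02. With median scaling in place of quantile normalization, the signs of the clade a and clades c to i medians turned in liver, hepatocytes and the interaction. That of clade a also turned in FF isolation. The median of all probes moved too, to -0.06, 0.17 and 0.23, and to -0.15 in FF isolation. Of the medians that turned, only that of clades c to i in liver also changed side relative to all probes. Median scaling also put Serpinh1 at -0.10 and Serpind1 at -0.35 for isolation in FF, leaving 4 of those 6 genes above 0.

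Serpina3f, a relative of human antichymotrypsin, rose in Dhep RNA from both preparations. Its log2 intensity was 7.22, 7.25 and 7.35 in FF liver and 8.76, 8.84 and 8.71 in Dhep liver. In FF hepatocytes it was 7.45, 7.55 and 7.47, and in Dhep hepatocytes 10.27, 10.22 and 10.27. The Dhep arrays lay above the FF arrays in each preparation, and Dhep hepatocytes stood above all other groups. The genotype difference was 1.50 ± 0.06 (SE) in liver, a 2.83-fold rise with an adjusted p of 6.7e-16 in limma. In hepatocytes it was 2.76 ± 0.06, or 6.79-fold (adjusted p = 1.01e-21 in limma).

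The isolation difference of Serpina3f was 1.48 ± 0.06 in Dhep, a 2.79-fold rise (adjusted p = 7.23e-16 in limma), and 0.22 ± 0.06 in FF, which was not called. With median scaling the FF value was -0.09. The interaction was 1.26 ± 0.08 (adjusted p = 8.05e-12 in limma). The gene has close relatives in its cluster, the probe's sequence was not analysed here, and signal from such relatives is uncertain.

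Macrophage markers were higher in Dhep in both preparations. Of 11 Kupffer cell and macrophage markers, 10 had a probe, 9 were above the floor in every group and Cd5l was not. Their summed intensity was 4203 to 4354 in FF liver against 9102 to 9426 in Dhep liver, and 3826 to 3882 in FF hepatocytes against 12177 to 12441 in Dhep hepatocytes. On isolation their median difference was -0.04 in FF and 0.40 in Dhep, where Serpina3f gave 0.22 and 1.48. By genotype, 6 of the 9 measured were called higher in liver and 7 in hepatocytes, where 0.508% and 1.5% of kept genes were. The part of this shift in the Serpina3f values was not tested, and in bulk RNA more cells of a type and more RNA per cell cannot be told apart.

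Some lymphocyte and neutrophil markers were also higher in Dhep, though many were not above the floor. Of 6 lymphocyte markers with a probe, 1 was above it in each FF group, 3 in Dhep liver and 2 in Dhep hepatocytes. Of 7 neutrophil markers, 3 were above it in each FF group and 2 in each Dhep group. Mpo and Camp were above it in FF liver but not in Dhep liver. The summed intensity of 6 T, NK and B cell markers was 424 to 441 in FF liver against 649 to 677 in Dhep liver, and 417 to 432 in FF hepatocytes, against 455 to 490 in Dhep hepatocytes. For 7 neutrophil markers the sums were 477 to 486, 613 to 620, 466 to 478 and 594 to 609. Of 3 lymphocyte markers measured, Ccl5, a chemokine of T and NK cells, was called higher by genotype in liver at 1.49. The other measured ones, Cd3e and Nkg7, were above the floor in Dhep groups only. On isolation the median of the 3 was -0.11 in FF and -0.26 in Dhep. In Dhep 1 was called lower on isolation, at -1.10, where 0.624% of kept genes were. In the interaction 1 was called lower, at -1.08, where 1.57% were. Of 4 neutrophil markers measured, S100a8, a calcium-binding protein of neutrophils, was called higher at 1.13 in liver and 1.31 in hepatocytes. The lowest of the 4 was at -0.12 in liver and -0.08 in hepatocytes. Among kept genes, 0.508% were called higher in liver and 1.5% in hepatocytes. The part of these markers in the Serpina3f values was not tested either.

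Serpina3n, an antichymotrypsin relative from the same cluster and a liver acute phase protein, was not called. Its log2 intensity was 12.96, 12.88 and 12.89 in FF liver and 13.29, 13.25 and 13.27 in Dhep liver. In FF hepatocytes it was 13.49, 13.53 and 13.56, and in Dhep hepatocytes 13.52, 13.69 and 13.52. FF and Dhep arrays were apart in liver and overlapped in hepatocytes. The genotype difference was 0.36 ± 0.06 in liver (adjusted p = 3.28e-05 in limma) and 0.05 ± 0.06 in hepatocytes (adjusted p = 0.475 in limma). Isolation gave 0.62 in FF and 0.30 in Dhep. Median scaling moved the liver genotype value to 0.17 and the FF isolation value to 0.32. Serpina3j, the remaining Serpina3 gene kept, was close to the floor, with differences of 0.01 to 0.04.

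**Figure D2:**
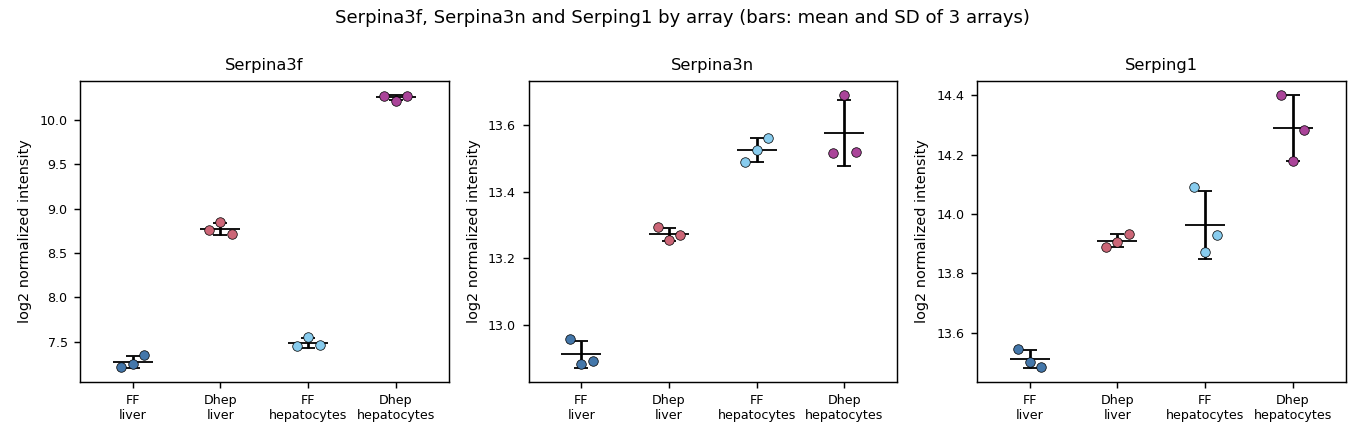
Log2 normalized intensity of Serpina3f, Serpina3n and Serping1 on each of the 12 arrays (points), with the mean and SD of 3 arrays per group (bars) and a separate axis for each gene. Serpina3f ran from 7.22 to 7.55 in FF and from 8.71 to 10.27 in Dhep, while Serpina3n overlapped between genotypes in hepatocytes.

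The Serpina1 genes, mouse copies of alpha-1 antitrypsin, the main plasma inhibitor of neutrophil elastase, differed little in any comparison after quantile normalization. Their 8 kept probes ranged from 15338 to 50598 in raw intensity, and the brightest stood at 82.8% to 97.1% of the highest value on its array. Whether the scale is compressed there was not tested. Quantile normalization gives probes of equal rank the same value on every array. That limits the differences that probes so near the top can show, and its part in these small differences was not tested. Over these probes the log2 genotype differences were -0.01 to 0.10 in liver and -0.23 to 0.06 in hepatocytes. Isolation gave 0.01 to 0.12 in FF and -0.18 to 0.07 in Dhep. Serpina1c, for example, had group means of 15.24 ± 0.12 (SD, n = 3) in FF liver and 15.23 ± 0.01 in Dhep liver, with 15.27 ± 0.09 in FF hepatocytes against 15.22 ± 0.09 in Dhep hepatocytes. The copies had near identical promoter windows, but transcript and probe sequences were not compared here. Signal from other copies is therefore uncertain, and it is not assigned to 1 copy with certainty.

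Serpina12, or vaspin, a serpin described in adipose tissue that inhibits kallikrein 7, had the lowest liver genotype difference of the family. Its log2 intensity was 12.17, 12.26 and 12.26 in FF liver and 11.45, 11.54 and 11.45 in Dhep liver. In FF hepatocytes it was 11.79, 11.79 and 11.66, and in Dhep hepatocytes 11.71, 11.77 and 11.66. The genotypes were apart in liver and overlapped in hepatocytes. The difference was -0.75 ± 0.06 in liver (adjusted p = 3.14e-10 in limma), short of the fold threshold, and -0.04 in hepatocytes. The interaction was 0.71 (adjusted p = 9.95e-08 in limma), and with median scaling it was 1.26, past the threshold. A second, dimmer probe gave -0.14 in liver and 0.13 in hepatocytes.

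Serpina10, the protein Z-dependent inhibitor of clotting factor X in its active form, had the largest isolation difference in FF. Its log2 intensity was 12.64, 12.79 and 12.70 in FF liver, and 13.45, 13.43 and 13.43 in FF hepatocytes. In Dhep liver it was 12.90, 12.95 and 12.93, and in Dhep hepatocytes 13.57, 13.51 and 13.61. Hepatocyte arrays lay above liver arrays in both genotypes. The isolation difference was 0.73 ± 0.05 in FF and 0.64 ± 0.05 in Dhep (adjusted p = 8.04e-11 and 1.07e-09 in limma), below the fold threshold, and median scaling gave 0.42 in FF. By genotype it was 0.22 in liver and 0.12 in hepatocytes.

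Serpina11, a gene of the same cluster, stood highest in FF hepatocytes. It read 8.45, 8.60 and 8.65 in FF liver, 8.72, 8.72 and 8.69 in Dhep liver, with 9.27, 9.26 and 9.31 for FF hepatocytes against 8.35, 8.62 and 8.46 for Dhep hepatocytes. The hepatocyte genotypes did not overlap. Its genotype difference was 0.15 in liver and -0.80 ± 0.06 in hepatocytes (adjusted p = 1.98e-10 in limma). The interaction of -0.95 was not called on all arrays, but was at -1.02 without Dhep hepatocyte array 2, -1.03 with an offset of 16 and -1.02 with cyclic loess. Median scaling gave -0.31 for hepatocyte genotype and -0.30 for the interaction.

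The remaining clade a genes are described after their values were seen. In any comparison 0 of them was called, where 0.0999% to 1.57% of kept genes were called in each direction. Serpina5, the protein C inhibitor, differed by -0.68 between genotypes in hepatocytes and by 0.67 on isolation in FF. With a normexp offset of 16 these became -1.07 and 1.06, both past the threshold. Its means were 6.24 in FF liver, 6.20 in Dhep liver and 6.23 in Dhep hepatocytes, close to the floor, against 6.91 in FF hepatocytes. Serpina6, corticosteroid-binding globulin, gave -0.40 between genotypes in hepatocytes and 0.01 in liver. Serpina7, thyroxine-binding globulin, gave -0.52 in hepatocytes and -0.28 in liver. Median scaling brought the hepatocyte values of Serpina6 and Serpina7 to -0.05 each. Serpina9 differed by 0.20 or less in each of the 4 comparisons.

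**Figure D3:**
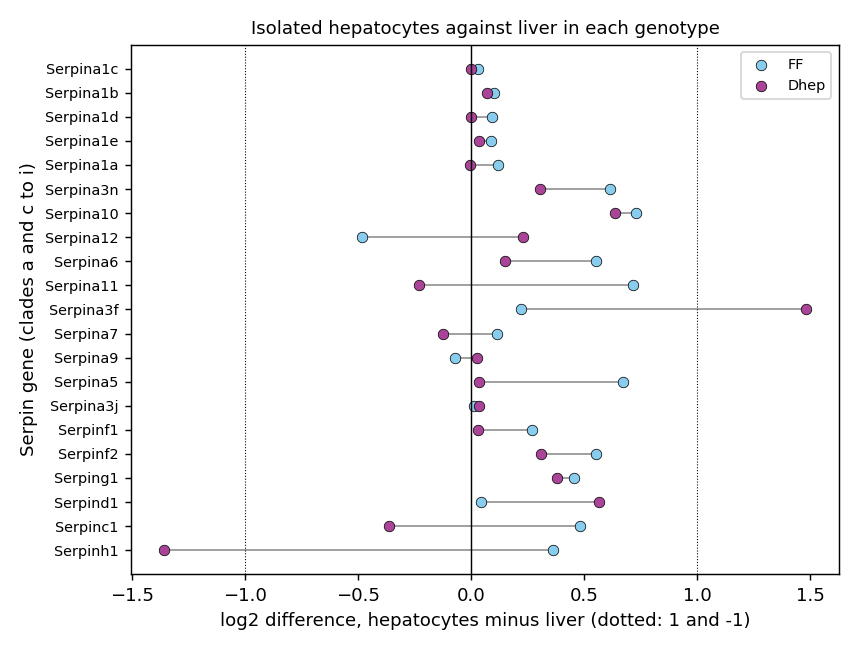
Log2 difference between isolated hepatocytes and liver for the 21 kept genes of clades a and c to i, in FF (light blue) and Dhep (purple), with lines joining the values of a gene and dotted lines at the fold threshold. Serpina10 stood at 0.73 and 0.64, while Serpina3f and Serpinh1 reached 1.48 and -1.36 in Dhep.

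The plasma inhibitors of clades c to i each had values of their own. Serpinc1, antithrombin, the heparin-activated inhibitor of thrombin, read 10.35, 10.41 and 10.68 in FF liver and 11.01, 10.89 and 11.02 in Dhep liver. In FF hepatocytes it read 10.89, 10.93 and 11.07, and in Dhep hepatocytes 10.49, 10.66 and 10.67. Dhep stood above FF in liver and below it in hepatocytes, without overlap. The differences were 0.49 ± 0.07 and -0.35 ± 0.07, with an interaction of -0.84 (adjusted p = 5.86e-07 in limma), none of them called. With median scaling these 3 values were 0.29, 0.01 and -0.28. The other Serpinc1 probe gave -0.06, -0.00 and 0.06 for these values, so the probes disagree.

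Serpind1, heparin cofactor II, a second thrombin inhibitor, was high on the Dhep hepatocyte arrays. It read 12.17, 12.08 and 12.08 in FF liver, 12.25, 12.20 and 12.27 in Dhep liver, with 12.15, 12.19 and 12.12 for FF hepatocytes against 12.84, 12.73 and 12.86 for Dhep hepatocytes. Dhep hepatocytes lay above the other 3 groups. The genotype difference was 0.65 ± 0.05 in hepatocytes (adjusted p = 4.11e-10 in limma) and 0.13 in liver. Its interaction of 0.52 became 1.00 with median scaling, at the threshold for a call.

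Serping1, the C1 inhibitor, which controls the start of the complement and contact pathways, was higher in Dhep in both preparations but not called. It read 13.54, 13.50 and 13.49 in FF liver and 13.89, 13.91 and 13.93 in Dhep liver. In FF hepatocytes it read 14.09, 13.87 and 13.93, and in Dhep hepatocytes 14.40, 14.18 and 14.28. The genotypes did not overlap in either preparation. The difference was 0.40 ± 0.06 in liver and 0.33 ± 0.06 in hepatocytes (adjusted p = 3.76e-05 and 0.000119 in limma), and the interaction was -0.07 (adjusted p = 0.534). A second probe gave 0.42 and 0.32, and median scaling moved the liver value to 0.18.

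Serpinf2 and Serpinf1 are neighbours on chromosome 11. Serpinf2, alpha-2 antiplasmin, which blocks plasmin, had means of 13.67 ± 0.05 (SD, n = 3) in FF liver, 13.77 ± 0.02 for Dhep liver, 14.22 ± 0.01 for FF hepatocytes and 14.07 ± 0.07 for Dhep hepatocytes. It stood 0.55 higher in hepatocytes than in liver in FF (adjusted p = 7.61e-09 in limma) and 0.31 higher in Dhep, with 0.29 in FF under median scaling, and its other 2 probes gave 0.64 to 0.69 and 0.31 to 0.36. Serpinf1, or PEDF, a secreted serpin that inhibits blood vessel growth and no known protease, had means of 14.56 ± 0.02, 14.47 ± 0.06, 14.83 ± 0.03 and 14.50 ± 0.06 in the same order. Its genotype difference was -0.33 in hepatocytes (adjusted p = 1.48e-05 in limma) and -0.09 in liver. A second, much dimmer Serpinf1 probe gave -0.07 in hepatocytes (adjusted p = 0.459 in limma) and 0.003 in liver.

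Serpinh1, also called HSP47, a chaperone of the endoplasmic reticulum that binds procollagen, fell in Dhep hepatocytes. Its log2 intensity was 8.42, 8.45 and 8.33 in FF liver and 8.45, 8.49 and 8.44 in Dhep liver. In FF hepatocytes it was 8.86, 8.71 and 8.71, and in Dhep hepatocytes 7.16, 7.10 and 7.04. The liver genotypes overlapped, and Dhep hepatocytes lay below all other groups. The hepatocyte genotype difference was -1.66 ± 0.06, 3.16-fold lower (adjusted p = 4.29e-17 in limma), and the liver one 0.06 (adjusted p = 0.489).

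The isolation difference of Serpinh1 was -1.36 ± 0.06 in Dhep, 2.57-fold lower (adjusted p = 5.09e-15 in limma), and 0.36 in FF, where median scaling gave -0.10. The interaction was -1.72 ± 0.08 (adjusted p = 6.56e-14 in limma), and -1.10 with median scaling, still called. A second, much dimmer Serpinh1 probe had group means of 6.36, 6.31, 6.33 and 6.13, near the floor, and a hepatocyte genotype difference of -0.20 (adjusted p = 0.0831 in limma). Averaged over both probes, the differences were -0.93, -0.77 and -0.93 for hepatocyte genotype, Dhep isolation and interaction, none of them called.

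**Figure D4:**
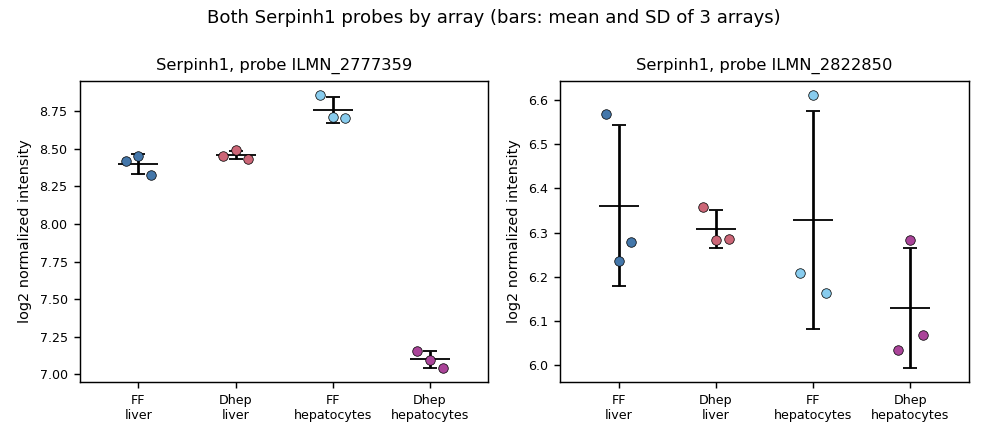
Log2 normalized intensity of the 2 Serpinh1 probes on each of the 12 arrays (points), with the mean and SD of 3 arrays per group (bars) and a separate axis for each probe. The brighter probe stood at 7.04 to 7.16 in Dhep hepatocytes and at 8.33 to 8.86 elsewhere, while the dimmer probe overlapped between groups.

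Markers of stellate cells and fibroblasts, the collagen-making cells of liver, were low on the same arrays. The summed intensity of the 10 markers was 10802 to 11095 for FF liver and 11125 to 11390 for Dhep liver, and 9890 to 10258 for FF hepatocytes against 4527 to 4712 for Dhep hepatocytes. Between hepatocyte genotypes 5 of 10 were called lower, where 1.22% of kept genes were. Among them were Acta2, a contractile actin, at -1.58 and Bgn, a matrix proteoglycan, at -1.50. Col1a1 was not above the floor in FF liver or in either hepatocyte group, and Pdgfrb not in Dhep hepatocytes. The sum of 10 sinusoidal endothelial markers was 7648 to 7897, 8818 to 9073, 9674 to 10085 and 5019 to 5146 in the same order. The part of either shift in the Serpinh1 values was not tested.

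In clade b, 0 of 7 kept genes were called in any comparison, where 0.0999% to 1.57% of kept genes were called in each direction. Only 3 of the 7 were above the floor in all 4 groups. Serpinb6a, an intracellular inhibitor of trypsin-like proteases, read 8.39, 8.45 and 8.49 in FF liver, 8.61, 8.53 and 8.79 in Dhep liver, with 8.74, 8.85 and 8.77 for FF hepatocytes against 9.21, 9.25 and 9.24 for Dhep hepatocytes. Dhep lay above FF in each preparation, by 0.20 in liver and 0.44 in hepatocytes (adjusted p = 0.0167 and 1.3e-06 in limma). With median scaling these were 0.04 and 0.93. Isolation gave 0.34 in FF, which became -0.12 with median scaling, and 0.59 in Dhep.

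The other clade b genes were dim. Serpinb6b gave -0.12 in liver and 0.31 in hepatocytes by genotype. Serpinb1a, an inhibitor of neutrophil proteases, gave -0.22 and -0.09, with group means of 6.13 to 6.35, close to the floor. Serpinb8, Serpinb3a, Serpinb3c and Serpinb6c differed by 0.14 or less in size in the 4 comparisons.

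When each RNA sample counted once, in a fit to the 4 RNA means, 0 of 28 serpin genes and 0% of all kept genes were called in either contrast. At an unadjusted p under 0.05 there were 3 serpin genes by genotype, where 5.42% of kept genes passed, and 5 by isolation, where 8.73% did. The 3 were Serpina3f at 2.13 (adjusted p = 0.917 in limma), Serping1 at 0.36 and Serpina7 at -0.40. For isolation, they were Serpina10 at 0.68 (adjusted p = 0.664 in limma), Serpinb6a, Serpina3n, Serpinf2 and Serping1, at 0.42 to 0.68. This fit has 1 residual degree of freedom.

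Of 32 listed target proteases of serpins, 23 were measured. In liver 1 of the 23 was called higher in Dhep, where 0.508% of kept genes were: Ctss, cathepsin S, a lysosomal cysteine protease of antigen-presenting cells, at 1.10. In hepatocytes Ctss, at 1.82, and C1s1, a complement protease blocked by the C1 inhibitor, at 1.06, were called higher, where 1.5% of kept genes were. None of the 23 was called lower, or in either isolation comparison, where 0.0999% to 1.57% of kept genes were called in each direction. The list's medians were 0.10 and 0.08 by genotype in liver and hepatocytes, and 0.29 and 0.31 on isolation in FF and Dhep, beside -0.03, -0.00, -0.03 and 0.01 over all kept genes.

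Among 12 cofactors and clearance receptors, 10 were measured and 1 was called: Asgr2, a subunit of the asialoglycoprotein receptor, higher by 1.19 in FF hepatocytes than in FF liver, where 0.841% of kept genes were called higher. Of 14 folding and degradation genes of the secretory pathway, 12 were measured. Of these 0 were called, where 0.0999% to 1.57% of kept genes were called in each direction. Their medians were -0.02, 0.09, 0.22 and 0.30 in the 4 comparisons. Without the fold threshold, 11 passed the adjusted p on isolation in FF and 10 in Dhep, where 49.8% and 46.1% of kept genes did. By genotype 3 passed in liver and 8 in hepatocytes, where 29.8% and 55.8% did. Agt, angiotensinogen, which has a serpin fold under another symbol, was 0.58 higher in hepatocytes than in liver in FF and 0.66 in Dhep, and was not called.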

How the data were processed

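Per the labels' protocols, total RNA was extracted with guanidine thiocyanate, cleaned on columns and amplified to biotinylated cRNA. Per the submitters' processing notes, BeadStudio was used; no version is named, and none of the sources used here gives its background setting. One table the authors deposited holds linear bead intensity with no scaling of arrays to each other. A second deposited table holds intensity normalized by a method that the sources used here do not state, and its 12 columns each matched their own array best. Here the deposited intensities were corrected by normexp with an offset of 50, put on the log2 scale and normalized by quantiles with limma 3.58.1 in R 4.3.3. Of 45281 probes, 34885 had 1 gene symbol, 18 several and 10378 none, and 22859 (50.5%) were kept.

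All 12 arrays entered 1 linear model of the 4 group means (lmFit, eBayes; 8 residual and 14.8 prior degrees of freedom), and the 4 RNA means entered a second, of preparation plus genotype. P-values were adjusted over all kept probes. The procedure was checked on simulated data. With 1 RNA sample per group, differences of genotype or preparation cannot be told apart from differences between single RNA samples. The number of arrays and mice also limits the precision. Named genes are those called, the 6 brightest kept of clade a, the 4 brightest of clade b, all kept of clades c to i, the 2 largest differences per contrast, and up to 4 called members of each other list and contrast. Members and lists were chosen with earlier results of these data known. Replicate numbers did not pair arrays: 18 same-number pairs correlated at -0.05 to 0.07. Promoters came from RefSeq (GRCm38.p6) and were aligned with Biopython 1.88 under Python 3.11.15; figures used matplotlib 3.10.9. Alternatives were other background corrections, normalizations, filters and probe rules, the replicate block, fits of the compared groups alone, calls without a fold threshold, and leaving out each array.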

Additional observations from a re-analysis of the deposited data

Results flagged for a closer look

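For Serpina3f and Serpinh1 the genotype difference on these arrays was not the same in the 2 preparations, as tested by the interaction in limma. That test compares single RNA samples, and its p-value measures only the spread between arrays. It therefore cannot tell an effect of preparation from differences between single RNA samples. The difference of Serpina3f was 1.26 larger in hepatocytes than in liver on the log2 scale (1.50 in liver, 2.76 in hepatocytes). The brighter Serpinh1 probe gave -1.72 (0.06 in liver, -1.66 in hepatocytes), and its second probe -0.15.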

How the results depend on the processing

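Over 23 alternatives, the Serpina3f genotype difference ran from 1.40 to 1.75 in liver and from 2.48 to 3.13 in hepatocytes, and it remained called. With the mean of kept probes per gene, Serpinh1 lost its call at -0.93 by genotype in hepatocytes, -0.77 by isolation in Dhep and -0.93 in the interaction, leaving 1 called gene in each. Without the fold threshold the called genes numbered 9 by genotype in liver, 14 in hepatocytes, 14 and 13 by isolation in FF and Dhep, and 14 in the interaction. An offset of 16 called 1 gene for isolation in FF, Serpina5 at 1.06, and moved the clade b medians to 0.19 by genotype in hepatocytes, 0.18 by isolation in Dhep and 0.22 in the interaction. Median scaling moved the median of all probes in the interaction from 0.02 to 0.23, and called 4 genes in the interaction. It put that median at -0.06 by genotype in liver, 0.17 in hepatocytes, -0.15 by isolation in FF and 0.06 in Dhep. It turned Serpinf2 (0.014) and Serpinc1 (0.0080) by genotype in hepatocytes, Serpinb6a (-0.12), Serpina3f (-0.091) and Serpinh1 (-0.10) by isolation in FF, and in the interaction Serpinf2 (0.13), Serpina3n (0.049), Serpina6 (0.15) and Serpina7 (0.37). Its medians were -0.042 for clade a and -0.095 for clades c to i by genotype in liver, 0.037 and 0.011 in hepatocytes, and 0.057 and 0.045 in the interaction. On isolation in FF they were -0.078, -0.094 and 0.076 for clades a, b and c to i, and in Dhep 0.24 for clades c to i. Cyclic loess gave clade a 0.16 by genotype in liver, 0.24 by isolation in FF and -0.22 in the interaction, and clades c to i 0.49 and 0.25 by isolation in FF and Dhep. The authors' normalized table gave clades c to i 0.25 by isolation in Dhep. Without the filter on dim probes, clade b was at -0.019, -0.016 and -0.026 by genotype in hepatocytes, isolation in Dhep and interaction, and clades c to i at 0.014, 0.046 and -0.075, with 0.27 by isolation in FF. The filter on every array gave clade b 0.31 by genotype in hepatocytes and 0.24 in the interaction. The mean of kept probes gave clades c to i -0.17 by genotype in hepatocytes and 0.28 by isolation in FF. Leaving out each array moved the clade b median in hepatocytes between 0.017 and 0.14, lowest without FF hepatocyte array 3, and the interaction called 2 to 3 genes. The causes of these moves were not tested. With the replicate number as a block, the counts were 1 and 2 by genotype in liver and hepatocytes, 0 and 2 by isolation, and 2 in the interaction, as without it. The numbers did not pair the arrays, and 6 of 12 arrays correlated best with their own number. Genes near the floor and the Serpina1 probes close to the array maximum limit what intensity can show.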

Other observations

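Protease inhibitors outside the serpin family, of which 22 of 27 listed were measured, gave 3 calls between hepatocyte genotypes, all lower in Dhep, where 1.22% of all kept genes were called lower. Wfdc2, a whey acidic protein domain inhibitor, fell by 1.94 on the log2 scale. Slpi, the secretory leukocyte protease inhibitor, fell by 1.57, and Timp2, an inhibitor of matrix metalloproteinases, fell by 1.07. In liver 0 of the 22 were called, where 0.508% of kept genes were called higher and 0.0999% lower. Wfdc2 was also 1.13 higher in hepatocytes than in liver in FF, the only call of the list on isolation. The interaction was called for Wfdc2 at -1.41 and for Slpi at -1.08, where 1.57% of all kept genes were called lower. The list's median was 0.02 by genotype in liver and -0.11 in hepatocytes, beside -0.03 and -0.00 over all kept genes. Stellate cell and endothelial markers were low on the same Dhep hepatocyte arrays, and their part in these values was not tested.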
